A study of Mus musculus with 24 samples.

Results

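The genes described here are 31 enzymes and companion proteins of fatty acid oxidation and ketone body formation, followed in livers of mice with and without the Rev-erb nuclear receptors. They were chosen by gene symbol, and all probes annotated to one of the symbols were taken over both genotypes and all 6 times of day. Of the 31 genes, 28 had an annotated probe, with 47 probes in all among the 25697 on the array. After a filter on dim probes, 24 of the 31 were tested, among 7272 tested genes in the series. Acsl1, a long-chain acyl-CoA synthetase, Acad11, an acyl-CoA dehydrogenase, and Hadha, the alpha subunit of the mitochondrial trifunctional protein, had no annotated probe and were not analysed here. The single probes of Fabp1 (the liver fatty acid-binding protein), Cpt1a (the outer carnitine palmitoyltransferase), Crot (carnitine octanoyltransferase) and Vnn1 (pantetheinase) passed the detection limit, a detection p under 0.01, on 0 of 24 arrays, and no difference is given for them.

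The mutant livers are labelled Reverb alpha/beta DKO and come from the strain Reverbalpha/beta Alb Cre+, in which Cre recombinase under the albumin promoter acts in hepatocytes on both receptor genes, Nr1d1 and Nr1d2. Most other cells of the liver do not use that promoter and are not targeted. The wild-type (WT) livers come from the strain Reverbalpha/beta Alb Cre-, which by its name differs in lacking the recombinase. All mice were males 20 weeks old on a c57Bl6/J background. Livers were taken at ZT0, ZT4, ZT8, ZT12, ZT16 and ZT20, and ZT (zeitgeber time) is the number of hours after lights on. Each genotype and time had 1 RNA sample on 2 Illumina bead arrays, which the labels call technical replicates and which were averaged, giving 6 values per genotype. The sources used here do not give the number of animals per RNA sample. Times stood in for replicates in every test, so that a p-value covers the spread between these RNA samples and nothing wider, and that spread may be technical.

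Fatty acids are activated to acyl-CoA, carried into mitochondria as carnitine esters and shortened in cycles of dehydrogenation, hydration, a second dehydrogenation and thiolysis. Peroxisomes run a parallel cycle for very long and branched chains, and the liver turns much of the resulting acetyl-CoA into ketone bodies during fasting. Many of these genes are known targets of PPAR alpha, the nuclear receptor that drives the fasting response of hepatocytes, while the Rev-erb receptors are repressors of the circadian clock that also bind near many genes of lipid metabolism.

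The median unprocessed signal was 245 to 341 units per array, and 34.8 to 40.2% of probes were detected. The 24 tested genes varied between the 2 arrays of a sample by an SD of 0.06 to 0.30 on the log2 scale. Of 3 slides, slide 1 carried the DKO samples up to ZT12 and slide 3 the WT samples from ZT8 on. Slide 2 carried the remaining samples of both genotypes, ZT16 and ZT20 of DKO beside ZT0 and ZT4 of WT. No time therefore had both genotypes on one slide. Slide 3, with WT samples only, stood apart before normalization. Its array medians were the lowest, 245 to 261 units, and its shares of detected probes the highest, 38.2 to 40.2%. DKO arrays had medians of 277 to 341 units and 34.8 to 38.1% detected. For WT samples on slide 2 these values were 274 to 284 units and 34.9 to 36.7%. How far this enters the genotype differences was not tested separately from slide. Of 8 hepatocyte markers, 6 were tested, and their summed linear signal was 295506 to 317558 in DKO and 295443 to 308515 in WT livers. Between 67.3 and 72.4% of that sum came from Apoa1, Apoa2 and Ttr, at log2 16.07 to 16.13 near the top of the scale, so it does not measure the amount of hepatocyte RNA. The probe for Alb lay near the detection limit (detected on 1 of 12 DKO and 8 of 12 WT arrays), so the albumin gene itself does not check the tissue here. The probes for the targeted genes were not low in DKO livers. Nr1d1 averaged 9.89 in DKO and 8.30 in WT livers on the log2 intensity scale, and Nr1d2 averaged 9.93 in DKO and 9.41 in WT livers. The sources used here do not place these probes relative to the deleted exons, so they do not check the labels. The DKO ZT0 sample stood apart in other cell types. The summed signal of the 3 tested of 8 neutrophil markers was 5722 there, against 661 to 1905 in the other DKO and 589 to 1071 in the WT samples. That of the 6 tested of 10 macrophage markers was 18607 there, against 7441 to 10411 in the other DKO and 5399 to 9137 in the WT samples.

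Averaged over the day, 6 of the oxidation genes were lower in DKO livers. Of the 24 tested genes, 6 fell and 0 rose (limma, Benjamini-Hochberg adjusted p under 0.05), which is 25% of them, while 4.99% of all tested genes fell and 4.32% rose (9.31% in either direction). The 6 were Crat, which exchanges acetyl groups between CoA and carnitine, Acadl and Hadhb of mitochondrial oxidation, Acaa1b and Pex11a of peroxisomes, and Acat1, the mitochondrial acetoacetyl-CoA thiolase. The difference was negative for 19 genes and positive for 5, where 47% of all genes were negative. The median difference was -0.32 on the log2 scale, against 0.02 over all genes. At an unadjusted p under 0.05, 16 of the 24 lay lower and 0 higher, against 14.2% of all genes lower. Fewer hepatocytes in the tissue and less RNA per hepatocyte cannot be told apart in these bulk samples. Markers of other liver cells lay mostly higher in DKO. Sox9, the 1 tested of 5 cholangiocyte markers, was higher by 0.99 (adjusted p 0.021, detected on 10 of 12 DKO and 6 of 12 WT arrays). Lyve1, of 5 tested endothelial markers, was higher by 0.86 (0.049), and 4 of those 5 were positive. Positive differences, none of which passed, were found for 5 of 6 macrophage, 3 of 3 neutrophil and 3 of 4 stellate cell markers. All 3 of these neutrophil and all 5 of these macrophage markers had their highest value of the 12 samples in DKO ZT0. Among neutrophil markers, S100a8 lay above WT at 5 of the 6 times, and S100a9 and Ltf at 3. The part of other cells in the differences of the oxidation genes was not tested.

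**Figure D1:**
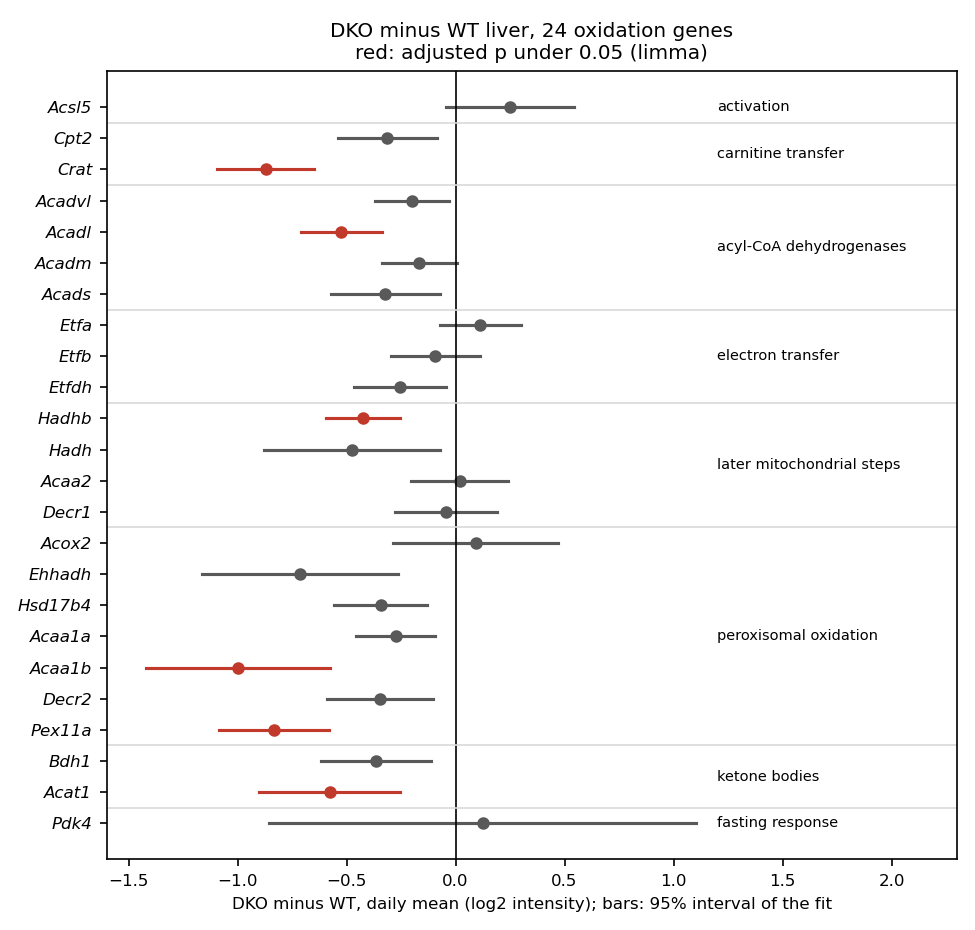
Difference in daily mean (DKO minus WT, log2 intensity, with the 95% interval of the limma fit) for the 24 tested genes, grouped by role. The 6 genes that passed, in red, range from -0.43 for Hadhb to -0.998 for Acaa1b, and 5 genes lie above 0.

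How far these falls can be read is limited by the slides. When slide entered as a random block, 3 of the 24 genes passed (Crat, Acadl and Pex11a), against 0.921% of all genes lower in that fit. When it entered as a fixed block, 0 of the 24 passed in limma, with 3 at an unadjusted p under 0.05, and 0 of all 7272 genes passed, with 793 at an unadjusted p under 0.05. Standard errors were then 2.83 times as large. In that fit the median over the 24 genes was -0.06, 13 were negative and 11 positive, where 50.4% of all genes were negative. Within slide 2, a comparison that mixes genotype with time (DKO at ZT16 and ZT20, WT at ZT0 and ZT4), 16 of the 24 were negative, where 50.7% of all genes were, and the median was -0.15. All 6 genes that fell were negative within slide 2, but they were chosen from values that include those of slide 2. For the 4 of them without overlap between genotypes, that sign was fixed by the lack of overlap. At any single time genotype and slide cannot be told apart.

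The starts of the 6 genes that fell were looked up to show what lies in front of them. For 25 of the 31 genes a promoter entry in RefSeq (GRCm38.p6) was used, covering 250 bases before to 50 bases after the annotated start. Crat and Acat1 had none, and the windows of Acaa2 and Hsd17b4 are not reported here. The 4 windows available for the genes that fell are shown with that of Acaa1a, the close relative of Acaa1b, each 5′ to 3′ on the strand of the gene. Capitals mark CCAAT boxes (CCAAT) and GC boxes (GGGCGG), read on either strand with overlapping matches counted separately.
Acadl: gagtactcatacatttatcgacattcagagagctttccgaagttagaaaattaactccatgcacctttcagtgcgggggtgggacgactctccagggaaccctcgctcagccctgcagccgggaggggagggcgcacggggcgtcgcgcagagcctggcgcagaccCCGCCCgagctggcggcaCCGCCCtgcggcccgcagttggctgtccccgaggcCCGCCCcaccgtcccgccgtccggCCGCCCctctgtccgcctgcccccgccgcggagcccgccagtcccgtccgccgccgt
Hadhb: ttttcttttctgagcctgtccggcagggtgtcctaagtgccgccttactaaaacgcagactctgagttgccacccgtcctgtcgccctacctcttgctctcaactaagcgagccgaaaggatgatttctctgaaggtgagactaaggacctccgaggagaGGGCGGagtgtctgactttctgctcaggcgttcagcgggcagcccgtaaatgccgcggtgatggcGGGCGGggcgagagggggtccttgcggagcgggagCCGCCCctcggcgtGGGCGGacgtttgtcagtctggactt
Pex11a: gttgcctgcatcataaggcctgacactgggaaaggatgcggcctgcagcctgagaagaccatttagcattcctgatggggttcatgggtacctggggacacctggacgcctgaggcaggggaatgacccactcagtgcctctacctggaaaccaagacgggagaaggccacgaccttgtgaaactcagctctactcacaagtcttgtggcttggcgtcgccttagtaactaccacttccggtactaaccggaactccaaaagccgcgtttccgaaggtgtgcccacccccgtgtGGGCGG
Acaa1b: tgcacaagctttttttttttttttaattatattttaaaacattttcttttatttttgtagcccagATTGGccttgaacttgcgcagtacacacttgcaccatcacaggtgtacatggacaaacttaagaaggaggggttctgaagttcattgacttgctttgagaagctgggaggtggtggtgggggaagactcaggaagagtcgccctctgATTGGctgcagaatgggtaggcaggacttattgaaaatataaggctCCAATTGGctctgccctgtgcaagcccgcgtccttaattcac
Acaa1a: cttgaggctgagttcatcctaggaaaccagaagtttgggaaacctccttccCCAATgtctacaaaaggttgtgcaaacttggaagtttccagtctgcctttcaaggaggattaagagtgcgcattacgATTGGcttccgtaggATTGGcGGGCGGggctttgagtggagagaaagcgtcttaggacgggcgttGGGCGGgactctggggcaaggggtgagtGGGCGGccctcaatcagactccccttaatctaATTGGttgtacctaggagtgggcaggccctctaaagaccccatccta
The window of Acadl lies at chr1:66863260-66863559 (minus strand), that of Hadhb at chr5:30155003-30155302 (plus), that of Pex11a at chr7:79743082-79743381 (minus), that of Acaa1b at chr9:119157044-119157343 (minus) and that of Acaa1a at chr9:119341044-119341343 (plus).

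The Acadl window is 70.3% G and C and holds 4 GC boxes, the Hadhb window 60.7% with 4, and the Pex11a window 57.3% with 1, against a median of 52.7% G and C over all 32851 windows. The Acaa1b window differs from these, with 43.7% G and C, 0 GC boxes and 4 CCAAT boxes, 2 of which overlap. The Acaa1a window has 4 CCAAT and 3 GC boxes, and 177 of 258 aligned positions (68.6%) are the same in both. Over all windows, 37.4% hold a CCAAT box and 35.7% a GC box. GC boxes are not particular to the genes that fell. They lie in 3 of the 4 that fell, in 9 of 15 tested genes that did not pass and in 17 of all 25. CCAAT boxes lie in 1 of the 4, 9 of the 15 and 14 of the 25. Matches to 4 further motifs were searched on both strands: the direct repeat bound by PPAR alpha (AGGNCA 2 times with 1 base between, in 0.381% of all windows), the core bound by Rev-erb (TAGGTCA, 2.61%), the half-site within it (AGGTCA, 16.3%) and the E-box of the clock activators (CACGTG, 7.15%). The 4 windows of genes that fell hold 0 matches to any of these, which says only that the letters are not in these 300 bases. Among the other members, Fabp1 has a match to the repeat and to the core, and Acadvl has a match to the core.

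Activation and transfer on carnitine come first in the pathway. Acsl5, a long-chain acyl-CoA synthetase, was the only tested gene of its role and had the highest difference of the 24. Its log2 intensity was 15.71, 15.61, 14.99, 15.49, 15.28 and 15.23 in DKO livers from ZT0 to ZT20, against 14.97, 15.18, 15.23, 14.99, 15.12 and 15.32 in WT livers. The genotypes overlapped, with DKO above WT at ZT0, ZT4, ZT12 and ZT16, and the daily mean difference of 0.25 ± 0.13 (SE) did not pass (adjusted p 0.245). Cpt2, the inner-membrane carnitine palmitoyltransferase, had a difference of -0.31 ± 0.10 (adjusted p 0.080).

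Crat had the lowest p of the 24 genes. Its log2 intensity was 7.98, 7.73, 7.64, 7.43, 7.84 and 7.91 in DKO livers from ZT0 to ZT20, against 8.82, 8.10, 8.11, 8.53, 8.79 and 9.41 in WT livers. The highest DKO value lay below the lowest WT value, and the gap was widest at ZT20. The daily mean fell by 0.87 ± 0.10 (SE, 6 times per genotype), a 1.83-fold lower level (adjusted p 0.002). The probe was dim, at 347 to 918 units of unprocessed signal, and the size of the fall depended on the background correction. It was -0.50 with no correction and -0.51 with the authors' processed values. Of its other probes, 1 was detected on 0 of 12 DKO and 4 of 12 WT arrays and 1 on 0 of either, so no difference is given for them.

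Among the acyl-CoA dehydrogenases, which take the first oxidation step at different chain lengths, all 4 tested genes had a negative difference and 1 fell. Acadl, the long-chain enzyme, had 9.65, 9.86, 9.85, 10.07, 9.98 and 9.80 in DKO livers from ZT0 to ZT20, against 10.31, 10.08, 10.50, 10.51, 10.46 and 10.49 in WT livers. The values did not overlap, although DKO ZT12 and WT ZT4 were nearly level. Its daily mean fell by 0.52 ± 0.08, 1.44-fold (adjusted p 0.008), and its other detected probe gave -0.50. The medium-chain Acadm differed by -0.17 ± 0.08 (adjusted p 0.184), the very-long-chain Acadvl by -0.20 ± 0.08 (0.126) and the short-chain Acads by -0.32 ± 0.11 (0.096). None of these 3 passed. Second detected probes gave -0.39 for Acadm (adjusted p 0.074) and -0.20 for Acads (0.211) in the limma fit of all kept probes.

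The electron transfer flavoprotein takes electrons from those dehydrogenases and its own dehydrogenase hands them to ubiquinone. None of its 3 genes passed on the probe used for the gene. Etfdh, the dehydrogenase, had 12.07, 12.13, 12.29, 11.97, 12.31 and 12.27 in DKO livers from ZT0 to ZT20, against 12.52, 12.41, 12.24, 12.36, 12.34 and 12.70 in WT livers. The genotypes overlapped, and the daily mean difference was -0.26 ± 0.09 (adjusted p 0.114). A dimmer Etfdh probe was detected on 2 of 12 DKO and 10 of 12 WT arrays. It passed as lower in the limma fit of all kept probes (adjusted p 0.017). With most DKO arrays not well above background, no size is given for it. The subunit genes Etfa and Etfb differed by 0.11 ± 0.08 (adjusted p 0.397) and -0.09 ± 0.09 (0.534). The 4 kept probes of Etfa ran from -0.17 to 0.11, and the 2 of Etfb from -0.11 to -0.09.

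Of the later mitochondrial steps, 1 of 4 tested genes fell. Hadhb, the thiolase subunit of the trifunctional protein, had 12.43, 12.51, 12.65, 12.58, 12.72 and 12.59 in DKO livers from ZT0 to ZT20, against 12.99, 12.87, 12.96, 13.16, 13.00 and 13.06 in WT livers. The genotypes did not overlap. The daily mean fell by 0.43 ± 0.08, 1.34-fold (adjusted p 0.012). Hadh, the short-chain hydroxyacyl-CoA dehydrogenase, differed by -0.48 ± 0.18 (0.122) on a dim probe, with an interval of -0.88 to -0.07. Acaa2, the mitochondrial thiolase, differed by 0.02 ± 0.10 (0.924), with an interval of -0.20 to 0.24, and its 4 probes ran from -0.39 to 0.03. Decr1, which reduces dienoyl-CoA, differed by -0.04 ± 0.10 (0.819), with an interval of -0.28 to 0.19.

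**Figure D2:**
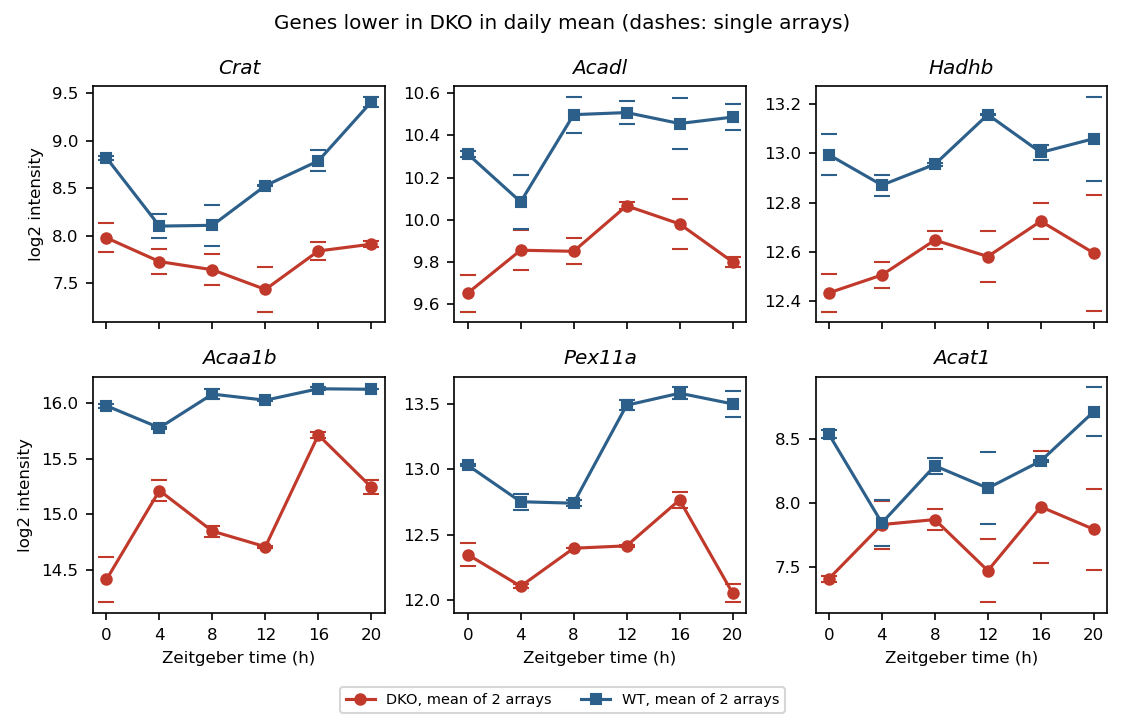
Log2 intensity against zeitgeber time (h) for the 6 genes that fell in daily mean, as the mean of 2 arrays per sample with single arrays as dashes, for DKO (red circles) and WT (blue squares). For Crat, Acadl, Hadhb and Acaa1b every DKO sample lies below every WT sample, while Pex11a and Acat1 overlap.

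Peroxisomal oxidation held 7 tested genes, of which 2 fell and 0 rose. Acaa1b, a peroxisomal thiolase, had the largest difference of the 24. Its log2 intensity was 14.41, 15.21, 14.85, 14.71, 15.71 and 15.24 in DKO livers from ZT0 to ZT20, against 15.98, 15.78, 16.08, 16.03, 16.13 and 16.12 in WT livers. The WT values stayed within a narrow band near the top of the scale, while the DKO values were spread and all lower. The daily mean fell by 0.998 ± 0.19, 2.00-fold (adjusted p 0.014). Its unprocessed signal was 19611 to 54993 in DKO and 51943 to 72370 in WT livers, where the highest signal of any probe was 72294 to 74912 per array. With WT so near the highest signals, the fold may be understated. Its near copy Acaa1a differed by -0.28 ± 0.08 (0.062). Probe sequences were not used here, so how far either probe also reads the other gene cannot be told, and the separate values are uncertain.

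Pex11a, a membrane protein of dividing peroxisomes, had 12.35, 12.11, 12.40, 12.42, 12.77 and 12.06 in DKO livers from ZT0 to ZT20, against 13.03, 12.75, 12.74, 13.49, 13.58 and 13.50 in WT livers. DKO lay below WT at each of the 6 times, with the highest DKO value at ZT16 just above the lowest WT value at ZT8. The daily mean fell by 0.83 ± 0.11, 1.78-fold (adjusted p 0.004), and its 3 probes gave -1.27 to -0.83. Ehhadh, the L-bifunctional enzyme, had 9.49, 9.97, 9.58, 9.32, 10.17 and 10.53 in DKO livers from ZT0 to ZT20, against 10.61, 10.09, 10.60, 10.10, 10.85 and 11.11 in WT livers. It was below WT at each time, but the values overlapped and its difference of -0.71 ± 0.20 did not pass (0.054, interval -1.16 to -0.27). Hsd17b4, the D-bifunctional enzyme, differed by -0.34 ± 0.09 (0.052), and Decr2, the peroxisomal dienoyl-CoA reductase, by -0.35 ± 0.11 (0.073). A second Decr2 probe gave -0.43 and passed in the limma fit of all kept probes (adjusted p 0.014). Acox2, the oxidase for branched chains and bile acid precursors, differed by 0.09 ± 0.17 (0.759).

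For ketone bodies, Acat1 had 7.41, 7.83, 7.87, 7.47, 7.97 and 7.80 in DKO livers from ZT0 to ZT20, against 8.54, 7.85, 8.29, 8.12, 8.33 and 8.71 in WT livers. The genotypes were level at ZT4 and overlapped. The daily mean fell by 0.58 ± 0.14, 1.49-fold (adjusted p 0.036), but the SD between the 2 arrays of a sample, 0.30, was the highest among the 24 genes. The Acat1 probe was dim (349 to 722 units of unprocessed signal), and its difference was -0.31 with no background correction. Without the DKO ZT0 sample, whose marker signals are given above, its difference was -0.49 and no longer passed (0.075). The other 5 genes still passed without that sample. Bdh1, which interconverts the ketone bodies acetoacetate and 3-hydroxybutyrate, differed by -0.37 ± 0.11 (0.071). A second, dimmer Bdh1 probe gave -0.48 and did not pass in the limma fit of all kept probes (adjusted p 0.202).

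Pdk4 is the kinase that shuts pyruvate dehydrogenase during fasting. Its log2 intensity was 8.40, 8.55, 7.41, 9.22, 8.32 and 9.23 in DKO livers from ZT0 to ZT20, against 8.85, 9.25, 5.82, 7.96, 8.71 and 9.79 in WT livers. DKO lay above WT at ZT8 and ZT12 and below at the other 4 times. On both WT ZT8 arrays the probe was not well above background, so that DKO was at least 1.63-fold higher there, taking the lowest detected signal of those arrays as the floor. The daily mean difference was 0.12 ± 0.44 (adjusted p 0.881), with an interval of -0.86 to 1.10.

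The 6 genes differed in how far a call held when data were left out. Crat and Pex11a passed without any 1 of the 6 times and without any 1 of the 12 samples. Acadl, Hadhb and Acaa1b also passed without any 1 sample, but did not pass without certain times, where 2 samples are lost. Acadl gave -0.45 (adjusted p 0.066), -0.54 (0.058) and -0.50 (0.055) without ZT8, ZT12 and ZT20. Hadhb gave -0.45 (0.0675) without ZT8, -0.36 (0.086) without ZT12, -0.47 (0.055) without ZT16 and -0.42 (0.065) without ZT20. Acaa1b gave -0.95 (0.092), -0.87 (0.070) and -1.002 (0.077) without ZT8, ZT12 and ZT20. Acat1 passed in 3 of the 12 fits without a sample (DKO ZT4, DKO ZT16 or WT ZT4) and in 1 of the 6 without a time (ZT4), with values from -0.73 to -0.45 when samples, times or arrays were left out.

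**Figure D3:**
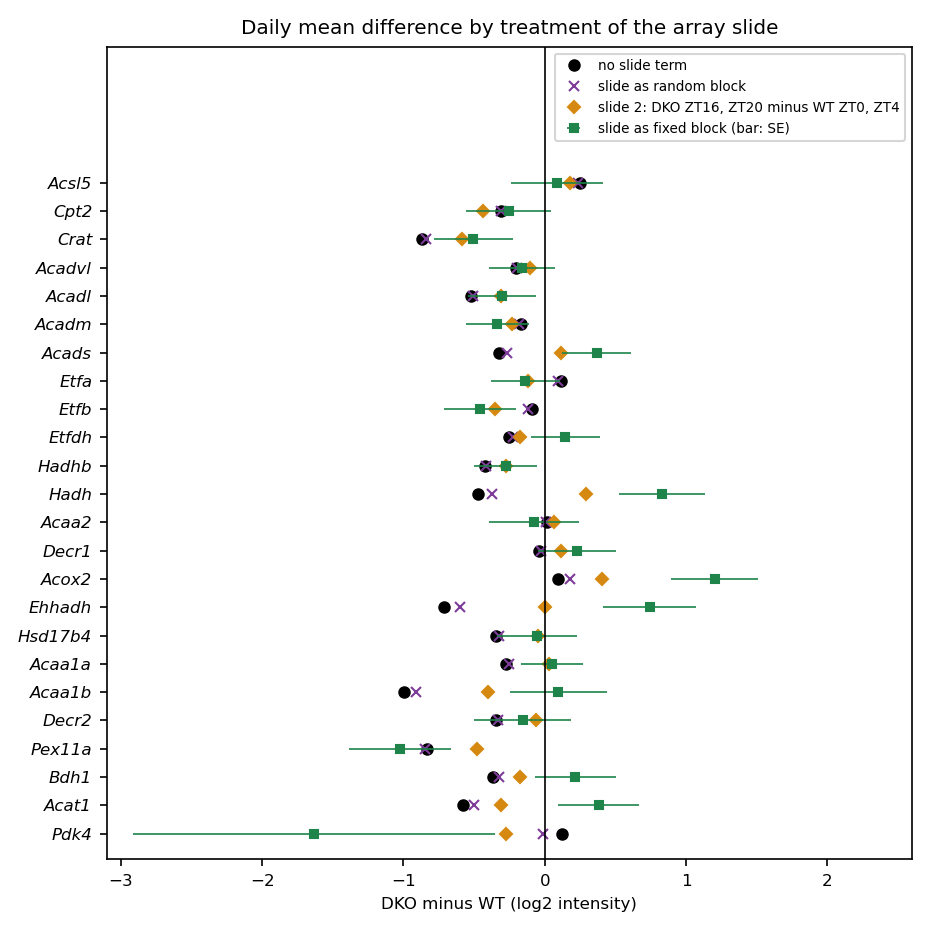
Difference in daily mean (DKO minus WT, log2 intensity) of the 24 genes with no slide term, with slide as a random or fixed block, and within slide 2. Crat, Acadl, Hadhb and Pex11a are negative in all 4, while Acaa1b and Acat1 turn to 0.10 and 0.38 with the fixed block.

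Under these slide settings 4 of the 6 genes kept a negative difference throughout. For Crat, Acadl and Hadhb, whose genotypes did not overlap, the sign within slide 2 was fixed in advance. Crat was -0.84 with the random block (adjusted p 0.014), -0.51 with the fixed block and -0.59 within slide 2. Pex11a was -0.85 (0.024), -1.03 and -0.48, and Acadl was -0.51 (0.047), -0.30 and -0.31. Hadhb was -0.41 with the random block, where it no longer passed (0.068), -0.28 with the fixed block and -0.27 within slide 2. The last pair changed sign under the fixed block. Acaa1b was -0.91 with the random block (0.081), 0.10 with the fixed block and -0.40 within slide 2, and Acat1 was -0.50 (0.188), 0.38 and -0.31.

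Taken time by time, each genotype has 1 RNA sample and there is no test. A gene was counted where both arrays of one genotype lay beyond both of the other and the means were at least 1.5-fold apart. In DKO livers 7 of the 24 genes were lower at ZT0 (11.2% of all genes), 2 at ZT4 (4.39%), 4 at ZT8 (8.4%), 7 at ZT12 (9.67%), 4 at ZT16 (5.69%) and 7 at ZT20 (7.33%). Higher in DKO were 1 gene at each of ZT0 (12.4% of all genes), ZT8 (8.04%) and ZT12 (8.75%), and 0 at ZT4 (4.17%), ZT16 (5.62%) and ZT20 (6.44%). The lower genes thus outnumbered the higher at every time, and the median difference of the 24 ran from -0.46 at ZT20 and -0.40 at ZT12 to -0.12 at ZT4.

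**Figure D4:**
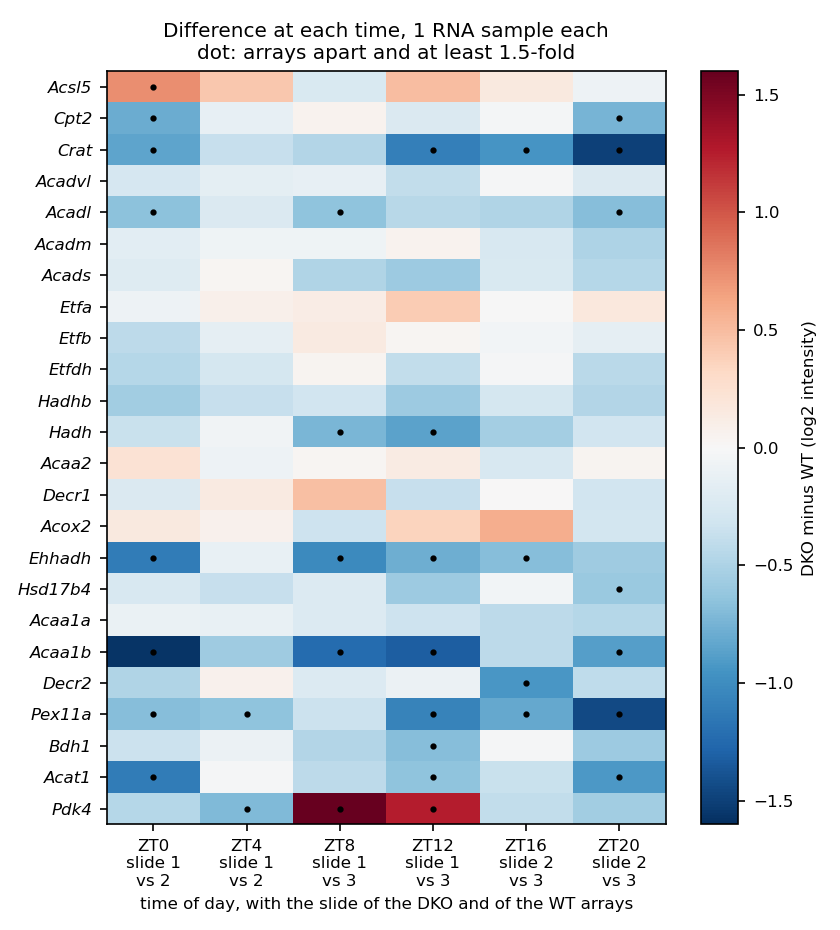
Difference at each time (DKO minus WT, log2 intensity, colour scale) for the 24 genes, with the slides of both genotypes under each column and dots where both arrays lay apart by at least 1.5-fold. Pex11a is marked lower at 5 times and Crat, Ehhadh and Acaa1b at 4, and Pdk4 is marked lower at ZT4 and higher at ZT8 and ZT12, where its ZT8 colour is set against a WT level not well above background.

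The genes furthest apart changed with the hour. At ZT0 Acaa1b (-1.57) and Acat1 (-1.12) were furthest down and Acsl5 (0.74) and Acaa2 (0.24) furthest up. At ZT4 these were Pdk4 (-0.70) and Pex11a (-0.64) against Acsl5 (0.43) and Decr1 (0.14). At ZT8 Acaa1b (-1.24) and Ehhadh (-1.02) lay lowest and Decr1 (0.48) and Pdk4 highest, the last at least 1.63-fold above a WT level that was not well above background. ZT4 was the time with the smallest differences. At ZT12 Acaa1b (-1.32) and Crat (-1.09) were lowest and Pdk4 (1.26) and Acsl5 (0.50) highest. At ZT16 Crat (-0.95) and Decr2 (-0.93) were lowest and Acox2 (0.58) and Acsl5 (0.15) highest. At ZT20 Crat (-1.50) and Pex11a (-1.44) were lowest and Etfa (0.17) and Acaa2 (0.05) highest. Over the day 12 of the 24 genes were below WT at all 6 times (9.78% of all genes) and 0 were above at all 6 (10.5%). Without overlap between the 6 values of each genotype, 4 genes were lower (2.1% of all genes) and 0 higher (2.12%).

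Daily rhythm was tested with a 24 h harmonic in each genotype. In limma 0 of the 24 genes passed in WT (0.179% of all genes), 0 in DKO (0.055%) and 0 for a difference in rhythm (0% of all genes). At an unadjusted p under 0.05, 6 genes were rhythmic in WT (13.8% of all genes), 2 in DKO (7.4%) and 1 differed (6.19%). The 6 in WT were Crat, Pex11a, Decr2, Acaa1a, Decr1 and Pdk4, and Decr1 and Acaa1a were also the 2 in DKO. The fitted amplitude of Crat was 0.23 ± 0.10 (SE) in DKO and 0.61 ± 0.10 in WT livers, with the WT peak near ZT19.3 (unadjusted p 0.027 and adjusted p 0.706 for the difference). That of Pex11a was 0.21 ± 0.11 in DKO and 0.49 ± 0.11 in WT livers, with the WT peak near ZT16.7. For Acaa1a it was 0.26 ± 0.08 in DKO and 0.35 ± 0.08 in WT livers, peaking near ZT10.9 in DKO and ZT12.9 in WT. Decr1 had 0.44 ± 0.10 in DKO and 0.33 ± 0.10 in WT livers, peaking near ZT10.1 in DKO and ZT12.7 in WT. For Pdk4 the values were 0.46 ± 0.44 in DKO and 1.44 ± 0.44 in WT livers, the WT value resting partly on the ZT8 sample where the probe was not well above background. These sizes and calls moved with the slide term. With slide as a fixed block the amplitude of Acaa1a was 0.31 in DKO and 0.19 in WT livers, and that of Decr1 was 0.64 in DKO and 0.40 in WT livers. Crat, with 0.21 in DKO and 0.61 in WT livers, and Pex11a, with 0.24 in DKO and 0.57 in WT livers, moved little. In that fit Crat (0.001), Pex11a (0.038) and Pdk4 (0.035) stayed under an unadjusted p of 0.05 in WT, while Decr1 (0.120), Decr2 (0.225) and Acaa1a (0.290) did not. Ehhadh (0.015), Acox2 (0.016) and Acat1 (0.029) came under it.

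As a description of the fitted curves, whether or not they passed, 14 of 24 in DKO and 21 of 24 in WT livers peaked between ZT12 and ZT24, the dark phase in which mice feed. Over all genes 47.7% in DKO and 47.4% in WT livers peaked there. Once slide was a fixed block, 9 did so in DKO (49.1% of all genes) and 19 in WT (48.1% of all genes). The amplitude was lower in DKO for 16 of the 24 genes, where it was lower for 58.8% of all genes, and for 11 with slide as a fixed block (49.5% of all genes).

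**Figure D5:**
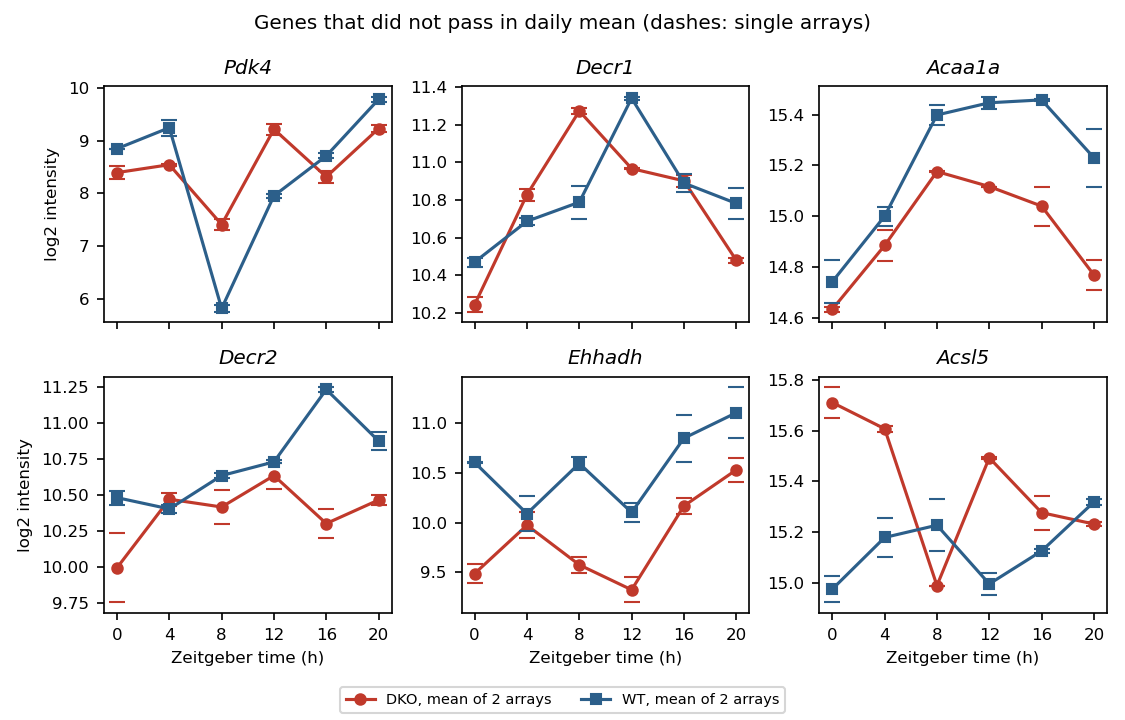
Log2 intensity against zeitgeber time (h) for 6 genes that did not pass in daily mean, as the mean of 2 arrays per sample with single arrays as dashes, for DKO (red circles) and WT (blue squares). The Pdk4 lines cross between genotypes, Acaa1a and Ehhadh lie below WT at all 6 times in DKO, and Acsl5 lies above WT at 4 of them.

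The same fit was read for other genes of the pathway. Of 46 listed, 38 were tested, of which 11 fell (28.9%) and 2 rose in DKO livers, with a median difference of -0.19. Of all tested genes, 4.99% fell and 4.32% rose. This list and those below were chosen with earlier results of these data known. Ppara, the receptor named above, had 7.34, 8.02, 7.99, 7.73, 7.63 and 7.91 in DKO livers from ZT0 to ZT20, against 7.72, 8.40, 8.83, 9.15, 9.06 and 8.31 in WT livers. It was lower at all 6 times, and most so from ZT12 to ZT16. Its daily mean fell by 0.81 ± 0.13 (adjusted p 0.009), but did not pass with slide as a random block (adjusted p 0.052). The size of the Ppara fall depended on the processing. It was -0.47 with no background correction, -0.475 with the authors' processed values and -0.35 with slide as a fixed block. Creb3l3, a fasting-induced transcription factor that works with PPAR alpha, fell by 0.63 (0.027), and Lpin1, a phosphatidate phosphatase and coactivator, rose by 0.64 (0.047). The coactivator gene Ppargc1a differed by -0.30 ± 0.21 (0.384, detected on 9 of 12 arrays of each genotype) and the fasting hormone gene Fgf21 by 0.19 ± 0.34 (0.750). These were among 10 regulators, of which 2 fell and 1 rose.

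Of 12 tested genes of uptake, carriage and activation, 5 fell (41.7%, against 4.99% of all genes) and 0 rose (4.32% of all genes), with a median of -0.19. Slc22a5, the cell's carnitine importer, had 9.11, 8.81, 8.97, 8.62, 8.85 and 8.82 in DKO livers from ZT0 to ZT20, against 9.62, 9.32, 9.64, 10.90, 10.33 and 10.37 in WT livers. The genotypes did not overlap, and the daily mean fell by 1.17 ± 0.14 (adjusted p 0.002). Slc25a20, which exchanges acylcarnitine for carnitine across the inner mitochondrial membrane, fell by 0.72 ± 0.11 (0.007). The others were Slc27a2, an acyl-CoA synthetase for very long chains (-0.52, 0.020), Acsm5, a medium-chain synthetase (-0.40, 0.028), and Abcd3, a peroxisomal transporter (-0.32, 0.031).

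Among 14 further oxidation enzymes, 4 fell (28.6%, against 4.99% of all genes) and 0 rose (4.32% of all genes). Eci2 (-0.67, adjusted p 0.013), Eci1 (-0.59, 0.015) and Ech1 (-0.51, 0.015) handle the double bonds of unsaturated chains, and Pecr (-0.63, 0.049) reduces enoyl-CoA in peroxisomes. On the ketone list 2 genes were tested, of which 1 rose and 0 fell. Oxct1, which uses ketone bodies and is low in hepatocytes, had 8.29, 7.92, 7.97, 8.28, 7.88 and 8.45 in DKO livers from ZT0 to ZT20, against 7.65, 7.69, 7.28, 7.24, 7.51 and 7.06 in WT livers. It was higher in DKO at every time and rose by 0.73 ± 0.14 (adjusted p 0.016). The rise was 0.36 with no background correction and 0.37 with the authors' processed values. With slide as a fixed block, Oxct1 (-0.05), Acsm5 (0.12), Eci1 (0.02) and Pecr (0.63) changed sign. With slide as a random block 2 of these 13 genes of the pathway passed, Slc22a5 (adjusted p 0.015) and Slc25a20 (0.038), and the other 11 had adjusted p from 0.052 to 0.230. In that fit 0.921% of all genes were lower. Without the DKO ZT0 sample, 8 of these 13 calls remained, and Creb3l3, Lpin1, Acsm5, Abcd3 and Pecr did not pass. Of the 13, Slc22a5 passed without any 1 of the 6 times and Slc25a20 without 5 of them, while Lpin1, Abcd3 and Pecr passed in none of those fits.

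Of 10 tested genes on a list of other PPAR alpha targets, the fit called 8 lower and 0 higher, of which 7 were detected in both genotypes. Of all genes, 4.99% were called lower and 4.32% higher. The acyl-CoA thioesterases Acot3 (-3.20, adjusted p 0.005) and Acot1 (-3.04, 7.38e-04) and the fatty acid hydroxylase Cyp4a14 (-1.97, 0.009) were furthest down. Near copies exist in each of these families, and whether a probe also reads a near copy was not tested. Cyp4a12a (-1.55, 0.039) and Acot4 (-1.43, 0.012) followed. Cidec, a lipid droplet protein, was detected on 0 of 12 DKO and 5 of 12 WT arrays, so its call stands only for a level at least 1.07-fold lower in DKO. The median of the list was -1.15 with that bound and -1.49 with its fitted value. With slide as a fixed block Acot3 and Acot4 changed sign (0.17 and 0.53), and Acot1 and Acot3 were the 2 of the 8 that passed without any 1 time. With slide as a random block the same 2 passed (0.921% of all genes were lower in that fit), and the other 6 had adjusted p from 0.056 to 0.163. Without the DKO ZT0 sample, 5 of the 8 remained, Cidec among them, and Angptl4, Cyp4a12a and Plin2 did not pass. Of 10 genes of fatty acid synthesis, 0 passed in limma, with 2 at an unadjusted p under 0.05 and a median of -0.03. Of 13 respiratory chain subunits, 0 passed, with 3 at an unadjusted p under 0.05 and a median of -0.09. Differences between these lists were not tested.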

How the data were processed

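Liver RNA was isolated with Trizol, cleaned on a column and labelled as biotinylated cRNA, per the labels' protocols. GenomeStudio handled the scanner data, per the submitters' processing notes (version not given in the sources used here). Each deposited signal is a linear intensity averaged over the beads of a probe, not normalized between arrays, per the file headers. The detection p-value, also deposited, compares a probe with negative controls, and further columns give the number of beads (38.1 to 40.6 on average) and their standard error. In the authors' table of processed intensity, array medians were 278.76 to 278.97 on a linear scale, genes were not centred and the Spearman correlation with the unprocessed signal was 1. The method behind that table is unknown.

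Gene symbols came from the platform annotation. Of 25697 probes, 23978 had 1 symbol, 0 several and 1719 none listed, and the symbols of all 47 probes of the chosen genes were kept on a match of Entrez identifiers to a RefSeq gene table. In R 4.3.3 with limma 3.58.1, the signals were corrected by normexp (offset 16, controls inferred from detection), quantile normalized and taken to log2. A probe was kept when p was under 0.01 on each array of 2 or more of the 12 groups (10243 kept), and a gene was read from its brightest kept probe on average. Of the 24 genes, 10 had several kept probes, and in 6 of these the brightest had the smallest absolute difference. Paired arrays of a group correlated at 0.988 to 0.992 and were averaged. Over all 7272 genes, the 12 averages were fitted with a mean and a 24 h harmonic per genotype (residual df 6, prior df 3.32). The daily mean difference, the rhythm of either genotype and the change in rhythm were tested, by a procedure tried on simulated data. Precision is limited by the number of samples, 12 in all.

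Named were every tested gene of the list, with values at each time for those that passed and for the largest difference in each role with none. Also named were the 2 furthest up and down at each time, up to 6 genes that passed in each further list, and Ppara, Ppargc1a and Fgf21. Some further genes of the pathway are not reported here. Values at each time for Ehhadh, Ppara, Slc22a5 and Oxct1 were added after they were seen. The genes, the lists and the promoter motifs were chosen with earlier results of these data known, and the comparison within slide 2 was added after seeing the data.

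Other settings tried were an offset of 50 or no correction of the background, scaling by the median, the authors' values, other filters on dim probes, all kept probes, single arrays with a replicate block or a random block for the RNA sample, slide as a block, robust variances with a trend, time as a factor, a 2-fold minimum, and fits without each time, sample or array.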

Additional observations from a re-analysis of the deposited data

Results flagged for a closer look

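For the daily values of the 24 tested genes in each genotype, 1 of 48 groups of 6 held a sample far from the others by Dixon's test at the 95% level, where chance flags about 1 in 20 groups. In DKO livers Acadvl, the very-long-chain acyl-CoA dehydrogenase, was 13.21 at ZT16, against 13.04 for the nearest of the other DKO times, a gap of 0.69 of the whole range. Its values in WT livers ran from 13.16 to 13.37.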

How the results depend on the processing

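The replicate numbers of the arrays do not pair samples across groups: over 66 pairs of groups the correlation of deviations ran from -0.05 to 0.06, with 0 over 0.1. With arrays as separate samples and the replicate number as a block, which counts technical arrays as independent, 18 of the 24 genes passed in daily mean, 7 for rhythm in WT, 2 for rhythm in DKO and 1 for a difference in rhythm. Of those 18, 17 were lower and 1, Acsl5, was higher. With the RNA sample as a random block the counts were 12, 5 in WT and 1 in DKO for rhythm. In daily mean 10 passed with no background correction, with the authors' values or with an intensity trend and robust variances, 11 of 39 with all kept probes, 18 with median scaling, 3 when slide was a random block and 0 when it was a fixed block. Leaving out times, samples or arrays gave 2 to 7, the 2 being Crat and Pex11a without ZT8, ZT12 or ZT20, and medians of -0.36 to -0.26. The median was -0.55 with median scaling, where that of all genes was -0.20, and the gap between them was -0.34 in both. It was -0.0625 with the fixed slide block and -0.15 within slide 2. Median scaling also gave 1 rhythmic gene in WT. Counts of genes apart at single times became 1, 2 and 5 at ZT4, ZT8 and ZT12 without background correction and with the authors' values, which also gave 2 at ZT16. They became 14, 17, 12 and 19 at ZT8, ZT12, ZT16 and ZT20 with median scaling, and 3, 0, 3, 4, 0 and 2 from ZT0 to ZT20 at 2-fold. Shares of all genes are not given for these single-time counts, nor for the rhythm counts and the remaining daily mean counts above. None of these counts is read as a result about the 24 genes. Signs turned for genes near 0: with median scaling Etfa was -0.11, Acaa2 -0.23, Acox2 -0.14 and Pdk4 -0.0571, and Pdk4 was -0.0126 without background correction, -0.00837 with the authors' values and -0.011 with the random slide block. With the fixed slide block, signs turned for Acads (0.37), Etfa (-0.14), Etfdh (0.14), Hadh (0.83), Acaa2 (-0.073), Decr1 (0.23), Ehhadh (0.74), Acaa1a (0.0501), Acaa1b (0.0971), Bdh1 (0.22), Acat1 (0.38), Pdk4 (-1.64), Oxct1 (-0.0547), Acsm5 (0.12), Eci1 (0.0193), Pecr (0.63), Acot3 (0.17) and Acot4 (0.53). Leaving out times, samples or arrays gave -0.0417 to 0.0922 for Acaa2, -0.134 to 0.0858 for Decr1, -0.0404 to 0.247 for Acox2 and -0.27 to 0.52 for Pdk4. The causes were not tested.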
